A study of Mus musculus with 6 samples.

Results

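The mRNAs described are those of the mitochondrial ribosomal proteins, taken by their mouse gene symbols as every protein-coding mRNA whose symbol starts with Mrpl or Mrps followed by a number. The rule found 78 of the 18437 mRNAs in the data, 49 of the large subunit (Mrpl) and 29 of the small subunit (Mrps). The rule itself used no measured value, but it was chosen with earlier results of these data known. The genes lie on 17 chromosomes, 11 of them on chromosome 11 and 8 on chromosome 17. Their coding sequences (CDSs) are short, with a median of 582 nt against 1320 nt over all mRNAs.

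The mitochondrial ribosome sits in the mitochondrial matrix and makes the small set of respiratory chain subunits that the mitochondrial genome encodes. Its ribosomal RNAs are made inside the organelle, but all of its proteins are encoded in the nucleus, translated in the cytosol and imported, so that the supply of these proteins depends on cytosolic translation. Some of the proteins have a bacterial counterpart and others are found only in mitochondria.

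Ribosome density was measured by Ribo-seq, which sequences the mRNA fragments that translating ribosomes protect from nuclease. There were 6 libraries, 1 each for tissues labelled heart, lung, brain, kidney, colon and small intestine, all from untreated wild-type C57BL/6J mice 4 weeks of age. Values are reads per kilobase of CDS scaled to the total of reads on all CDSs of the library (RPKM), so that levels of different mRNAs can be compared within a library. Between 4504853 and 10635031 reads lay on CDSs (median 7687498), and between 11520 and 15028 mRNAs had reads.

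With 1 library per label there is no replicate error, and no difference between libraries was tested. Intervals given for single values are exact 95% Poisson intervals of the reads, and intervals for shares of reads are 95% Wilson intervals. Both cover counting error only, since the reads carry no molecular identifiers here. No mRNA abundance was used, so a difference in RPKM can come from the amount of an mRNA as well as from its translation. Fewer cells of a type and less RNA per cell also cannot be told apart in whole tissue.

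The labels were compared with 18 tissue markers, 3 for each tissue, and 6 of them were highest under their own label, namely the markers of heart and lung. Myh6, a cardiac myosin, was at 6616 RPKM in the library labelled heart and at 77.1 RPKM or less in the others. Sftpc, a surfactant protein, was at 39332 RPKM in the library labelled lung and at 200.1 RPKM or less in the others. The other 12 markers were highest under another label. All 3 brain markers were highest in the library labelled small intestine, with Snap25 at 683 RPKM there and 0.761 RPKM under the brain label. All 3 small intestine markers were highest under the brain label, with Defa21 at 35599 RPKM there and 123 RPKM under the small intestine label. The kidney marker Umod was at 16438 RPKM under the colon label and 10.9 RPKM under the kidney label, and the colon marker Muc2 was at 2486 RPKM under the kidney label and 1.15 RPKM under the colon label. Libraries are named by their labels throughout. A name such as brain or kidney below is therefore a label only and makes no statement about that tissue. The comparison of heart with lung, whose markers were highest under their labels, is given beside the counts in heart. Kri1 alone took between 0.400% (lung) and 22.1% (kidney) of the reads, which lowers the RPKM of every other mRNA of that library.

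Mitochondrial ribosomal protein mRNAs had their highest median density in the library labelled heart. The median over the 78 mRNAs was 46.2 RPKM in heart, with the middle of the distribution (25th to 75th percentile) between 23.7 and 116 RPKM. It was 30.7 RPKM in the library labelled colon, 19.4 in lung, 17.8 in brain, 17.0 in small intestine and 16.3 in kidney. Over the members with reads alone, the medians were 46.2 RPKM in heart, 31.1 in colon, 28.1 in brain, 25.4 in lung, 17.0 in small intestine and 16.4 in kidney. Heart and colon were first and second in both forms, while brain and lung, with the most members without reads, moved away from small intestine and kidney. Taken as a share of all reads on CDSs, the 78 mRNAs held 0.475% in heart (0.470 to 0.480), 0.388% in colon (0.382 to 0.393), 0.211% in brain (0.208 to 0.214), 0.176% in lung (0.173 to 0.179), 0.175% in small intestine (0.172 to 0.178) and 0.160% in kidney (0.157 to 0.163). The heart median was 2.38-fold the lung median.

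Large subunit mRNAs had medians of 45.4 RPKM in heart, 29.8 in colon, 18.5 in lung, 18.2 in brain, 16.5 in small intestine and 14.7 in kidney. Small subunit mRNAs had medians of 47.5 RPKM in heart, 34.9 in colon, 20.9 in lung, 20.5 in small intestine and 17.0 in both brain and kidney. The ratio of the large to the small median lay between 0.802 (small intestine) and 1.07 (brain), and it was 0.955 in heart and 0.883 in lung. In colon the small subunit had the higher value in all 4 ways of computing the ratio, which gave 0.518 to 0.872. In the other libraries the side of 1 on which the ratio fell changed with the way of computing it. Over the members with at least 10 reads in every library it was 1.43 in heart and 1.68 in small intestine. Neither subunit is called higher over the libraries as a whole.

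**Figure D1:**
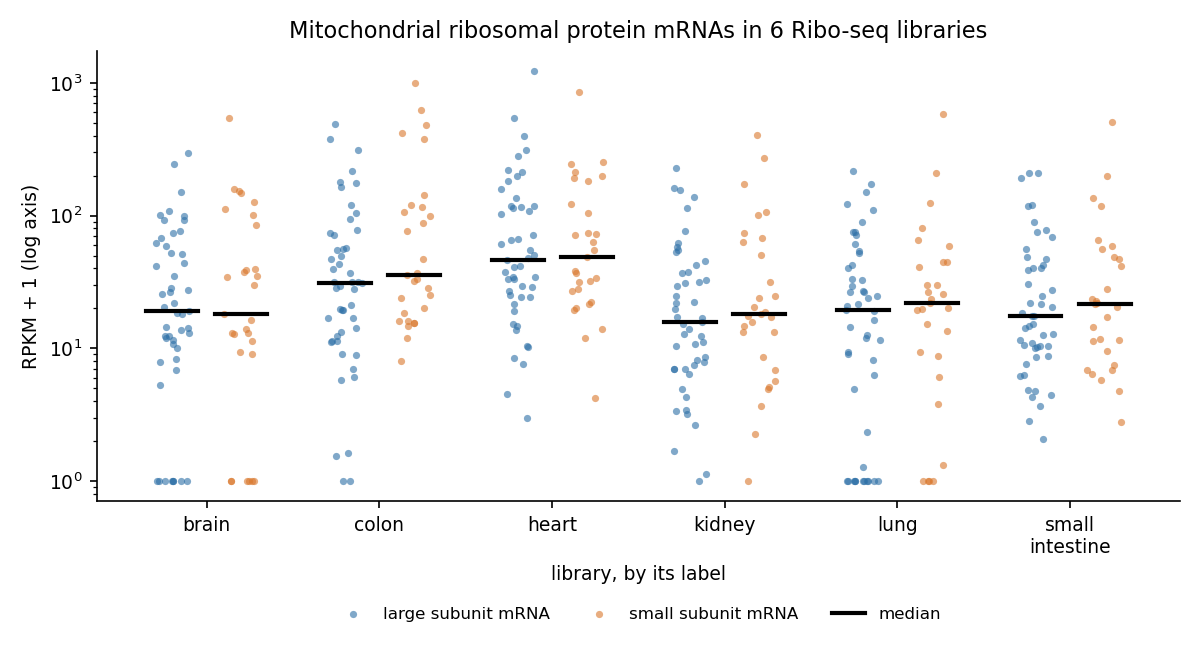
Ribosome density of the 78 mitochondrial ribosomal protein mRNAs in each library, as RPKM + 1 on a log axis, with large subunit mRNAs in blue, small subunit mRNAs in orange and black bars at the medians. The points of the heart library lie highest and start at 1.98 RPKM, while points on the lowest line are mRNAs with no reads, 14 in brain and 15 in lung.

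Mrps33, a small subunit protein found only in mitochondria, had the highest density of all members in every library but heart. Its density was 542 RPKM in brain, 992 in colon, 854 in heart, 401 in kidney, 582 in lung and 507 in small intestine. These values lie within a range of 1.30 on the log2(RPKM + 1) scale, the difference between the highest and the lowest library, against a median range of 3.01 over the 78 mRNAs. Mrpl35, of the large subunit, was nearly as even. Its density was 294 RPKM in brain, 311 in colon, 313 in heart, 154 in kidney, 173 in lung and 193 in small intestine, which gives the smallest log2 range of all members (1.02). Mrpl17, the mitochondrial counterpart of bacterial L17, had 246 RPKM in brain, 174 in colon, 281 in heart, 228 in kidney, 216 in lung and 117 in small intestine, a log2 range of 1.25. Mrps33 and Mrpl35 were among the 10 highest members in every library, and 18 members were among the 10 highest in any.

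Mrpl14 had the highest density that any member reached in any library. Its density was 25.5 RPKM in brain, 485 in colon, 1223 in heart (1187 to 1259), 159 in kidney, 149 in lung and 207 in small intestine. The heart value stands above all others, and the brain value stands below all others, giving a log2 range of 5.53. Mrpl55, a protein of the large subunit, had 73.0 RPKM in brain, 178 in colon, 541 in heart (517 to 567), 56.7 in kidney, 11.6 in lung (8.11 to 16.0) and 209 in small intestine. Heart was again highest, by 5.43 on the log2(RPKM + 1) scale over lung.

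Among the higher small subunit mRNAs, heart did not lead. Mrps21, the counterpart of bacterial S21, had 158 RPKM in brain, 620 in colon, 122 in heart, 273 in kidney, 79.8 in lung and 134 in small intestine. Mrps17, the counterpart of bacterial S17, had 33.4 RPKM in brain, 379 in colon, 252 in heart, 105 in kidney, 124 in lung and 196 in small intestine. Both were highest in the library labelled colon.

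The lowest members were close to the limit of detection. Mrpl33, whose CDS of 195 nt is the shortest of the 78, had 49.5 RPKM in heart (79 reads), 4 reads in small intestine, 1 read in kidney and none in brain, colon and lung. The heart value for Mrpl33 has an interval of 39.2 to 61.7 RPKM, and 3 reads would have given 1.45 RPKM in brain, 3.42 in colon and 1.99 in lung. Mrpl22 had 11.0 RPKM in brain, 12.2 in colon, 1.98 in heart, 1.06 in small intestine and no reads in kidney and lung. Mrpl1 had 7.93 RPKM in colon, 3.52 in heart, 3.76 in small intestine, 0.131 in kidney (1 read) and no reads in brain and lung. For Mrps7 the values were 22.9 RPKM in colon, 10.9 in heart, 1.80 in small intestine, 1.27 in kidney, and no reads in brain and lung. Mrps24 had 20.7 RPKM in heart, 14.6 in colon, 6.53 in small intestine, 3.95 in kidney and no reads in brain and lung.

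**Figure D2:**
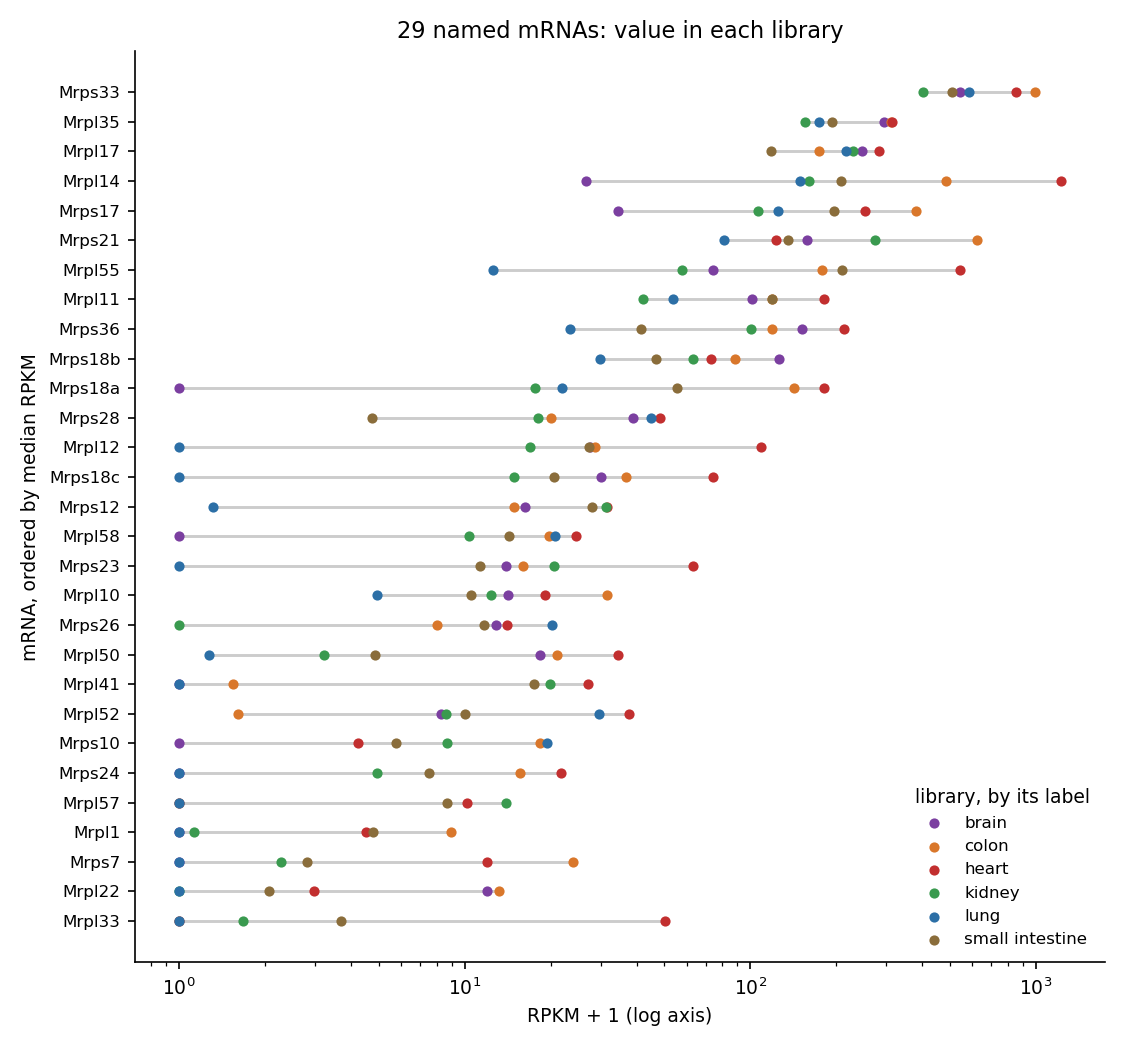
RPKM + 1 on a log axis for 29 named mRNAs in each of the 6 libraries, ordered by their median, with 1 point per library and a grey line from the lowest to the highest. Mrps33, Mrpl35 and Mrpl17 show the tightest points, heart (red) lies at the right end for Mrpl14, Mrpl55 and Mrpl12, and points at 1 are mRNAs with no reads.

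No member was without reads in heart or small intestine, 2 were without reads in colon and 2 in kidney, 14 in brain and 15 in lung. In all, 23 of the 78 had no reads in at least 1 library and 55 had reads in all 6. Over all mRNAs the share with no reads was 37.5% in brain, 33.2% in colon, 20.4% in heart, 23.5% in kidney, 37.1% in lung and 18.5% in small intestine. Of the members without reads in brain and lung, 7 had none in either, among them Mrpl1, Mrpl33, Mrpl41, Mrpl57, Mrps24 and Mrps7. In heart the 15 mRNAs without reads in lung had between 10 and 533 reads, and the 14 without reads in brain had between 16 and 868. Cytosolic ribosomal protein mRNAs, which every cell uses, also had libraries with no reads, as Rplp2 in brain and small intestine, Rps23 in colon and Rpl9 in all libraries but heart. Reads at several positions were excluded upstream, and whether this removed reads of these mRNAs was not tested. An absence of reads is therefore given only as such.

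On the log2(RPKM + 1) scale the widest ranges were those of Mrps18a (7.5), Mrpl12 (6.77), Mrps18c (6.21) and Mrps23 (5.98). Each of these had no reads in 1 library. With a pseudocount of 5, Mrpl14 had the widest range of the named members (5.33), ahead of Mrps18a (5.21) and Mrpl55 (5.04). Mrpl14 and Mrpl55 had reads in every library. Mrps18a had no reads in brain, where 3 reads would be 0.480 RPKM, against 141 RPKM in colon, 180 in heart, 16.6 in kidney, 20.9 in lung and 54.5 in small intestine. Mrpl12, of the stalk that recruits translation factors and is present in several copies per ribosome, had no reads in lung, where 3 reads would be 0.644 RPKM, against 26.5 RPKM in brain, 27.6 in colon, 108 in heart, 16.0 in kidney and 26.2 in small intestine. Mrps18c had no reads in lung, and 28.9 RPKM in brain, 35.7 in colon, 72.9 in heart, 13.8 in kidney and 19.5 in small intestine. Mrps23 likewise had none in lung, and 12.9 RPKM in brain, 15.0 in colon, 61.9 in heart, 19.6 in kidney and 10.3 in small intestine.

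The 3 mRNAs named Mrps18 encode related proteins that occupy different places in the ribosome, with the Mrps18a protein found in the large subunit in structures of the mammalian ribosome. They did not follow each other across the libraries. Mrps18b had 125 RPKM in brain, 87.4 in colon, 71.7 in heart, 62.3 in kidney, 28.9 in lung and 45.7 in small intestine. Mrps18b was highest and Mrps18a without reads in brain, while Mrps18a and Mrps18c were both highest in heart. In the stalk and its surroundings, Mrpl10, to which Mrpl12 binds, had 13.2 RPKM in brain, 30.5 in colon, 18.2 in heart, 11.4 in kidney, 3.95 in lung and 9.49 in small intestine. Mrpl11, at the stalk base, had 100.2 RPKM in brain, 118 in colon, 181 in heart, 41.2 in kidney, 52.8 in lung and 119 in small intestine. Mrpl10 was highest in colon, and the other 2 stalk mRNAs in heart.

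Of further members with particular roles, Mrps12, the counterpart of the decoding centre protein S12, had 15.3 RPKM in brain, 13.8 in colon, 30.5 in heart, 30.4 in kidney, 27.0 in small intestine and 1 read (0.310 RPKM) in lung. Mrpl58, a peptidyl-tRNA hydrolase that is also part of the large subunit, had 18.7 RPKM in colon, 23.5 in heart, 9.39 in kidney, 19.7 in lung, 13.3 in small intestine and no reads in brain. Mrps36, known as a subunit of the 2-oxoglutarate dehydrogenase complex rather than of the ribosome, had 151 RPKM in brain, 118 in colon, 212 in heart, 100.0 in kidney, 22.4 in lung and 40.6 in small intestine. All 3 were highest in heart, with Mrps12 at nearly the same level in kidney.

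Each library was set against the median of the other 5 on the log2(RPKM + 1) scale, and a difference of at least 1 (2-fold) was counted. The background is the share of all 15202 mRNAs with at least 10 reads in at least 1 library that passed the same rule. All 78 members entered. In heart 43 of the 78 members were at least 2-fold higher and 1 was lower, where the background was 19.4% higher and 17.9% lower. The median log2 difference of the members in heart was 1.14, against 0 for all mRNAs. Of the large subunit, 28 of 49 were higher (median 1.23), and of the small subunit 15 of 29 (median 1.02). Mrpl33 (log2 difference 5.66) and Mrpl41 (4.12) stood furthest above, and Mrps10 was the 1 member lower (log2 difference -1.03). Mrpl41 had 25.9 RPKM in heart, 18.9 in kidney and 16.5 in small intestine, 1 read in colon and none in brain and lung. Mrpl41 also stood above the median of the others in kidney (log2 difference 3.68) and in small intestine (3.5). Heart was the highest library for 45 of the 78 members (57.7%), against 12.7% of all mRNAs.

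Between heart and lung, 48 members were at least 2-fold higher in heart and 2 were lower, where the background was 21.9% higher and 31.6% lower. All 15 members with no reads in lung were among the 48. The comparison was not repeated on members with at least 10 reads in every library. The median log2 difference was 1.55, against -0.01 over all mRNAs. Of the large subunit 31 of 49 were higher (median 1.72), and of the small subunit 17 of 29 (median 1.34). The members lower in heart were Mrps10, at 3.24 RPKM in heart and 18.4 in lung, and Mrps6, at 103 RPKM in heart and 210 in lung, the latter named after its value was seen. Of the members with a bacterial counterpart 33 of 47 were higher in heart than in lung (median 1.76), and of those found only in mitochondria 13 of 29 (median 0.81). Those counted as higher include 11 and 4 members, respectively, with no reads in lung. Mrpl55 and Mrps36 were assigned to neither group, and their log2 differences between heart and lung were 5.43 and 3.19. Against the other 5 libraries the same groups had 26 of 47 (median 1.09) and 15 of 29 (median 1.20) higher in heart. The group with a bacterial counterpart had the larger share of higher members in both comparisons, but the larger median in the comparison with lung alone.

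**Figure D3:**
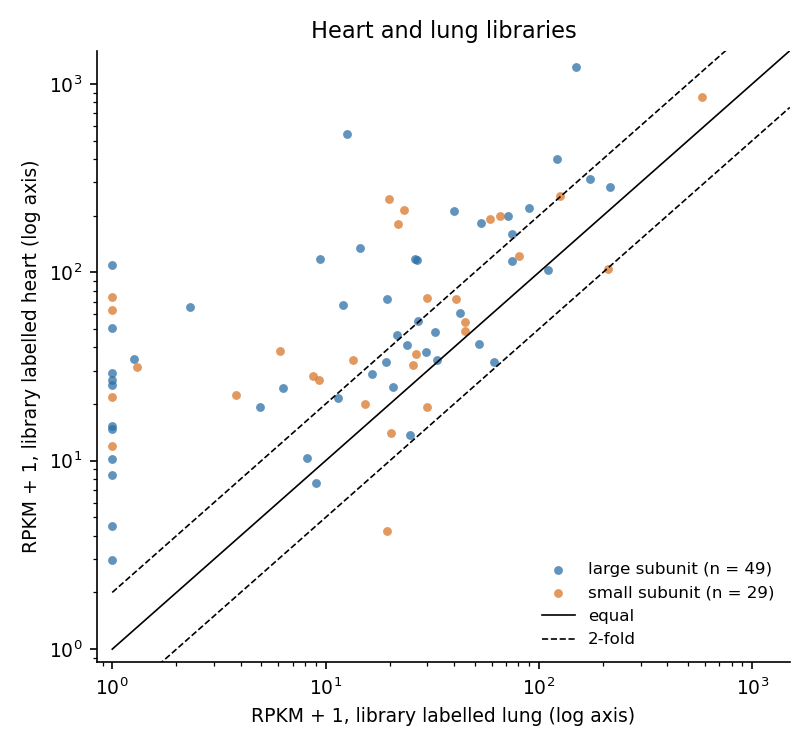
RPKM + 1 of each member in the library labelled lung (x axis) and in that labelled heart (y axis), both on log axes, with a solid line at equal values and dashed lines at 2-fold. Of the 78 points 48 lie at or above the upper dashed line and 2 at or below the lower one, and the column of points at the left edge holds the 15 members with no reads in lung.

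The library labelled colon, in which the kidney markers were highest, came next. There 26 members were at least 2-fold higher and 4 were lower, where the background was 21.9% and 17.2%. The median log2 difference was 0.59. Of the small subunit 14 of 29 were higher (median 0.87) and of the large subunit 12 of 49 (median 0.43). Mrps7 (log2 difference 3.40) and Mrpl1 (2.98) stood furthest above and Mrpl41 furthest below (-3.50), at 1 read in colon against 18.9 RPKM in kidney and 16.5 in small intestine.

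In the remaining libraries members were more often lower than higher. In kidney 4 were higher and 29 lower (background 19.2% and 15.7%), with a median log2 difference of -0.69. Centred on the median of each library, 8 were higher and 21 lower in kidney (all mRNAs 22.8% and 11.3%), and 3 higher and 43 lower in lung (all mRNAs 19.7% and 26.9%). With the reads of Kri1 left out of each total, 6 were higher and 21 lower in kidney (all mRNAs 23.8% and 11.5%). The 4 higher in kidney included Mrpl57, with no reads in brain, colon and lung, 9.19 RPKM in heart, 12.9 in kidney and 7.69 in small intestine. Mrps26 stood furthest below in kidney, with no reads there and between 7.03 (colon) and 19.2 RPKM (lung) elsewhere. In lung 6 were higher and 30 lower (background 29.3% and 17.8%), with a median of -0.75. Of the 6 higher in lung, Mrpl52 had 28.5 RPKM there, 36.7 in heart and 9.01 or less in the others. In brain 6 were higher and 21 lower (background 20.9% and 23.5%), with a median of -0.10, and all 6 were of the large subunit. Mrpl50 was 1 of these, with 17.3 RPKM in brain, 20.0 in colon, 33.6 in heart, 2.21 in kidney, 0.271 (1 read) in lung and 3.84 in small intestine. In small intestine 8 were higher and 17 lower (background 28.5% and 20.1%), with a median of -0.48, and Mrps28 stood furthest below, at 3.75 RPKM against 17.0 to 47.5 RPKM elsewhere. The share of lower members was close to the background in brain and in small intestine. The 21 lower in brain held all of its 14 members with no reads but Mrpl33. The 30 lower in lung held all of its 15 members with no reads but Mrpl33.

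**Figure D4:**
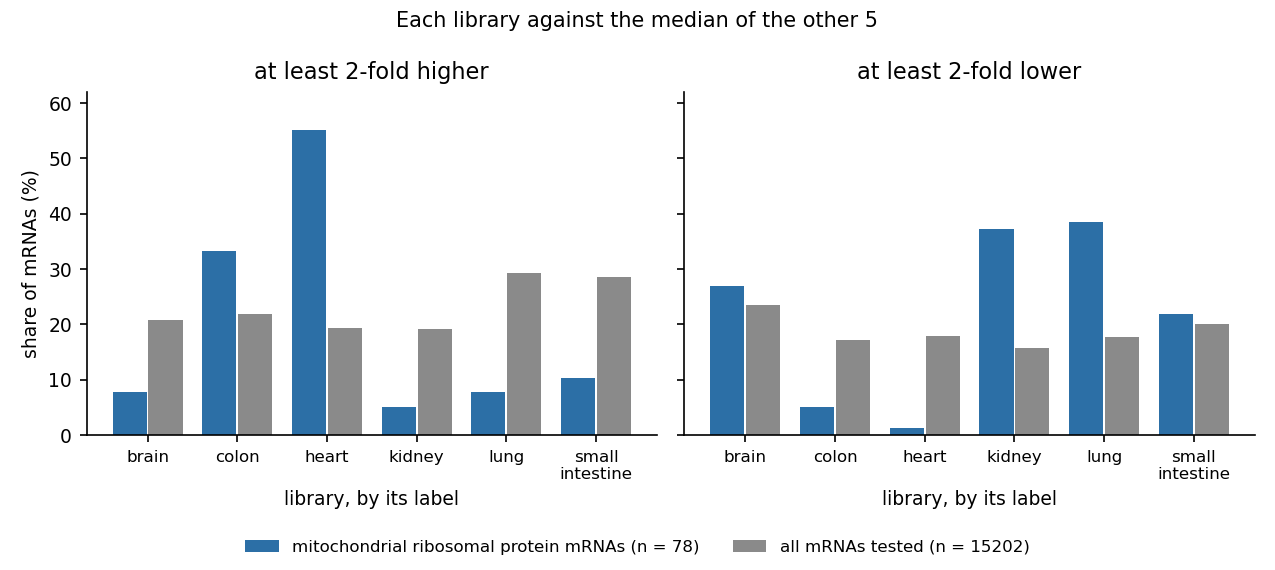
Share of the 78 members (blue) and of all 15202 mRNAs tested (grey) at least 2-fold higher (left) or lower (right) in each library than the median of the other 5, on the log2(RPKM + 1) scale. The blue bar is the taller of the pair for higher mRNAs in heart and colon and for lower mRNAs most clearly in kidney and lung.

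Proteins of the same pathway that carry other names were counted as lists. Their counts in heart are to be read against the background of 19.4% higher and 17.9% lower over all mRNAs. Of 9 mitochondrial translation factors, 6 were at least 2-fold higher in heart and 1 was lower (median log2 difference 1.28). The elongation factor Tufm had 46.5 RPKM in brain, 114 in colon, 167 in heart, 31.7 in kidney, 43.6 in lung and 31.3 in small intestine. Its exchange factor Tsfm had 0.0967 RPKM in brain (1 read), 29.9 in colon, 53.9 in heart, 6.24 in kidney, 27.5 in lung and 11.3 in small intestine. The elongation factor Gfm1 had 65.0 RPKM in heart and between 8.24 and 22.9 in the others, whereas the initiation factor Mtif3 had 25.1 RPKM in heart, 66.1 in brain, 55.8 in colon, 34.6 in kidney, 54.7 in lung and 13.0 in small intestine. Of 19 factors of mitochondrial ribosome assembly 18 were tested, and 10 were higher and 0 lower in heart (median 1.14). Of 5 ribosomal proteins with other names, 2 were higher and 0 lower in heart (median 0.72). Between heart and lung, where 21.9% of all mRNAs were higher and 31.6% lower, 5 of the 9 translation factors were higher in heart and 2 lower. Of the 18 assembly factors 11 were higher and 2 lower, and of the 5 ribosomal proteins with other names 3 were higher and 0 lower. Among the 11 assembly factors, Fastkd2, Malsu1, Mettl17, Mrm3, Mtg2 and Tfb1m had no reads in lung, and Mrm1 and Mtg1 had 1 read.

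The nuclear-encoded subunits of the respiratory chain were set beside the members. In heart 78 of 83 tested were at least 2-fold higher, with a median log2 difference of 2.52, a larger difference than that of the members. The median RPKM of the respiratory chain list was 10.8-fold the member median in heart, 5.34-fold in kidney, 5.23-fold in colon, 4.15-fold in small intestine, 3.86-fold in brain and 3.68-fold in lung. Put as the heart median over that of each other library, the members were 1.50 (colon) to 2.84-fold (kidney) higher and the respiratory chain list 3.10 (colon) to 7.28-fold (brain) higher. Of the mitochondrially encoded mRNAs, which the mitochondrial ribosome itself translates, 10 were listed, and 9 of them were higher in heart (median 1.75), and all 10 were higher in heart than in lung (median 2.86). Their median was 1797 RPKM in heart, 710 in kidney, 653 in colon, 552 in small intestine, 279 in brain and 168 in lung. The cytosolic ribosomal protein mRNAs had 16 of 73 (21.9%) higher in heart and 2 lower (median 0.56), a share of higher mRNAs near the background of 19.4%, and against lung 13 higher and 8 lower (median 0.14). Against lung the respiratory chain list had 78 of 83 higher (median 2.93).

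**Figure D5:**
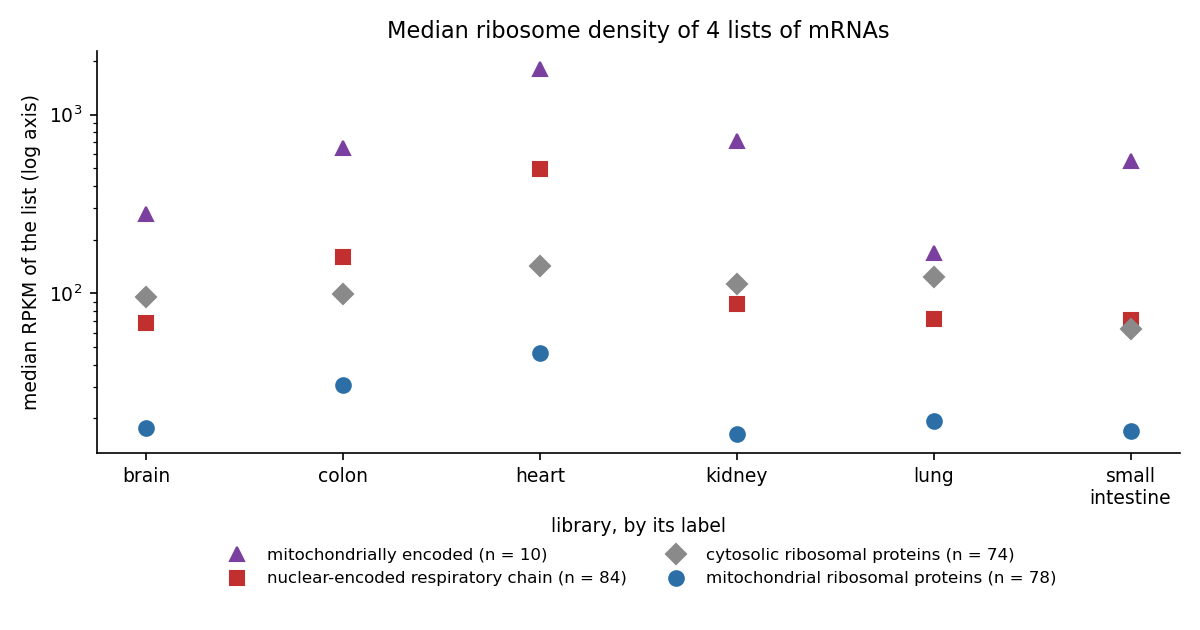
Median RPKM of 4 lists of mRNAs in each library, on a log axis. The mitochondrial ribosomal protein mRNAs (circles) are the lowest list in every library, and the respiratory chain list (squares) is 10.8-fold above them in heart and 3.68 to 5.34-fold above them in the others.

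The order of the members was similar between libraries. Over the 78 members, Spearman's rho of RPKM in heart with that in the other libraries was 0.84 (small intestine), 0.83 (colon), 0.81 (kidney), 0.76 (brain) and 0.65 (lung). These are correlations across mRNAs, which are not independent, and RPKM values share the CDS lengths. CDS length was only weakly related to the median RPKM (rho -0.14) and to the log2 range (rho -0.23), as was the share of codons ending in G or C to the median RPKM (rho 0.09). That share was 58.0% over the codons of the members and 56.6% over all mRNAs, from 33.6% in Mrpl1 to 82.6% in Mrpl34.

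The bases around the start codon were compared because this context bears on how often a scanning ribosome starts there. The context held to be strong has a purine at the third base before the start codon and a G right after it. Sequences are those of the listed mRNAs in the GENCODE M39 annotation of the GRCm39 genome, on the mRNA strand, 5′ to 3′. Capitals mark the third base before the start codon, the start codon and the base after it. Shown first are the 4 Mrpl and 3 Mrps mRNAs with the highest median density among those named, and after them the 3 Mrpl and 3 Mrps with the lowest.
Mrpl35: ggctgcAagATGGcg
Mrpl17: ggtgagAgcATGAgg
Mrpl14: tgggatCccATGGcc
Mrpl55: gaaaaaAcaATGCct
Mrps33: ggtgaaGaaATGTct
Mrps17: agacacAtaATGTca
Mrps21: tacgagGccATGGct
Mrpl33: cggtggAccATGCtg
Mrpl22: gggctcAgcATGGcg
Mrpl1: acagtcAacATGGcg
Mrps7: gcggccAagATGGct
Mrps24: cggcccAagATGGcg
Mrps10: ggcaccAagATGGcg

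A purine stood at the third base before the start codon in 74 of the 78 members (94.9%) and in 85.2% of all mRNAs. The respiratory chain list (95.2%) and the cytosolic ribosomal protein list (98.6%) had shares as high. A G followed the start codon in 54 members (69.2%) and in 51.0% of all mRNAs, with 52.4% in the respiratory chain list and 54.8% in the cytosolic list. Both were present in 51 members (65.4%) and in 43.0% of all mRNAs. Among the mRNAs of high density printed above, Mrpl35 and Mrps21 have both, Mrpl14 has a C at the third base before the start codon, and Mrpl17, Mrpl55, Mrps33 and Mrps17 have another base than G after it. Among those of low density Mrpl22, Mrpl1, Mrps7, Mrps24 and Mrps10 have both, and Mrpl33, the lowest, has a C after the start codon. Over all members, the 51 with both had a median density of 15.7 RPKM (the median over libraries of each mRNA, then over mRNAs) and the other 27 had 34.8 RPKM. Over all mRNAs tested, the 6518 with both had 5.83 RPKM and the other 8063 had 4.30 RPKM. These are descriptions with no test.

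The promoters were searched for 5 motifs on both strands, in the window from 250 bases before to 50 after the transcript start. The NRF1 motif, bound by a factor known for nuclear genes of mitochondrial proteins, was searched in the form printed in capitals below, with any base at the sixth position of the forward form. It was present in 12 members (15.4%) and in 6.44% of all promoters. Of the respiratory chain promoters 16.7% had it, and of the cytosolic ribosomal protein promoters 4.05%. CCGGAAG, as bound by ETS factors such as GABP, was present in 24 members (30.8%) and in 11.2% of all. The cytosolic ribosomal protein promoters had a similar share (29.7%), and the respiratory chain promoters had 13.1%. AAGATGGC, as bound by YY1, was present in 6 members (7.69%) and in 2.64% of all. These letters can also hold a start codon. Among the 6, those of Mrps18a, after the transcript start, hold its start codon. The start contexts of Mrpl35, Mrpl38, Mrpl46, Mrpl49, Mrps7, Mrps10, Mrps18b, Mrps24 and Mrps27 have the same letters, but these mRNAs were not among the 6. The GC box GGGCGG was present in 32 members (41.0%) and in 46.7% of all, and TATAAA in 8 (10.3%) and in 11.3%. At least 1 of the first 3 motifs was present in 36 members (46.2%) and in 18.5% of all promoters. The NRF1 motif is printed for 4 members named above, in capitals, within windows of 30 bases read 5′ to 3′ on the strand of the gene (GRCm39).
Mrpl12, chr11:120375372-120375401, plus strand: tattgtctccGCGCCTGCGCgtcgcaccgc
Mrpl14, chr17:45997268-45997297, plus strand: gaacccctggcGCGCAGGCGCagcgtgcgg
Mrpl17, chr7:105460324-105460353, minus strand: aggctctgatGCGCACGCGCaaacgcggta
Mrps21, chr3:95778898-95778927, minus strand: ggaaagtccaGCGCCTGCGCtcagcaccga

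In Mrpl12 and Mrps21 the letters lie before the transcript start and on the opposite strand, and in Mrpl14 and Mrpl17 they lie after it. The 12 members with these letters had a median density of 52.7 RPKM and the other 66 had 22.4 RPKM. Their median log2 difference in heart was 1.10, against 1.15 for the members without. For the ETS letters the medians were 20.7 RPKM with and 25.7 RPKM without, and the heart differences 1.28 and 1.06. A match is a description of the letters in the window, and binding was not measured here.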

How the data were processed

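Ribo-seq values of 6 mouse tissue libraries were used, 1 per label. Deposited values were RPKM, which the authors computed for the CDS of each mRNA, scaled to its length and to the reads on all CDSs. Their methods, written for macrophage libraries and taken to hold here, trimmed adapters with Cutadapt, dropped reads below 15 nt, mapped with STAR to 1 mRNA per gene (GRCm39, Ensembl release 107), excluded reads that had several positions or over 2 mismatches, and assigned P-sites by random forest. Versions of these tools were not given in the sources used here. In each library the smallest product of RPKM and CDS length above 0 was taken as 1 read. Whole reads were recovered on that basis within a tolerance of 0.01 of a read for 100% of values. An mRNA missing from a library was taken as having no reads.

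Symbols and coordinates came from GENCODE M39, which named 18424 of 18437 gene IDs. With 1 library per group no test was run, and a difference of at least 1 in log2(RPKM + 1) was counted instead, with a pseudocount of 1. Scripts ran in Python 3.11.15 with numpy 2.4.6, pandas 2.3.3, scipy 1.17.1 and matplotlib 3.10.9, and were tested on 7528 simulated mRNAs, for which 100% had their reads recovered. Each simulated library was given an mRNA with 1 read, so the simulation did not test whether the smallest value is 1 read. Of the members with at least 20 reads in their highest library, those named were the 4 Mrpl and 3 Mrps of highest and the 3 and 3 of lowest median, the 5 widest and 3 narrowest ranges, the 2 furthest above and 1 below in each library, and Mrpl10, Mrpl11, Mrpl12, Mrps12, Mrps18a, Mrps18b, Mrps18c, Mrpl58 and Mrps36 by role. Members, lists and markers were chosen with earlier results of these data known. Alternatives changed the pseudocount, scaling, depth, filter, subunit assignment and list.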

Additional observations from a re-analysis of the deposited data

How the results depend on the processing

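No paired analysis was possible because each label has 1 library. The member medians stayed within the 95% order-statistic interval of the main median when Kri1 was left out of the total and when proteins with other names were added and Mrps36 removed together. Leaving out members with no reads, chosen after seeing the data, also kept them within that wide interval but raised brain from 17.8 to 28.1 RPKM and lung from 19.4 to 25.4. Keeping the 50 members with at least 10 reads in every library removes low members, and the medians were then 71.3 (heart), 55.6 (colon), 39.5 (brain), 33.4 (small intestine), 30.3 (kidney) and 30.3 RPKM (lung). With that filter the large to small ratio was 1.43 in heart, 1.29 in kidney, 1.10 in lung and 1.68 in small intestine. With subunits taken from the structure it was 0.737 in brain, 1.01 in heart and 1.00 in lung, and with geometric means 0.954 in brain and 0.518 in colon; the cause was not tested. The ratio of the member to the respiratory chain median moved by less than 1.5 times throughout. With the filter, of 50 members 24 were at least 2-fold higher in heart, 15 in colon, 3 in lung, 3 in small intestine, 2 in brain and 1 in kidney, and 18 were lower in kidney, 11 in lung, 11 in small intestine, 8 in brain, 1 in colon and 0 in heart. All mRNAs under the filter were higher in 15.3% (heart), 20.9% (colon), 32.6% (lung), 15.3% (small intestine), 20.5% (brain) and 10.8% (kidney). They were lower in 20.2% (kidney), 9.43% (lung), 26.9% (small intestine), 16.0% (brain), 12.9% (colon) and 22.5% (heart). With a pseudocount of 5, 3 were higher in brain (all mRNAs 14.4%), 2 in kidney (9.57%) and 5 in small intestine (17.9%). Lower were 0 in heart (all mRNAs 9.56%), 19 in kidney (7.10%) and 8 in small intestine (12.0%). With 0.1, 7 were lower in colon (all mRNAs 26.3%). Leaving Kri1 out of the total, chosen after seeing the data, gave 2 lower in heart (all mRNAs 20.4%). Centring each library on its median put the median log2 difference of all mRNAs at 0.22 in heart (from 0) and -0.44 in lung (from 0.07). It gave 51 members higher in heart (all mRNAs 23.4%). In kidney 8 were higher and 21 lower (all mRNAs 22.8% and 11.3%). In lung 3 were higher and 43 lower (all mRNAs 19.7% and 26.9%). Thinning all libraries to the lowest total kept each count within 1.5 times. Of 58 log2 ranges of named members under the other pseudocounts, 28 moved by over 1.5 times. Values of single reads (as for Mrps12 in lung) are limited by depth.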
